A study of Mus musculus with 10 samples.

Results

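The genes described here supply amino acids to the cell and load them onto transfer RNA. They are 32 named mouse genes in 4 roles, chosen by symbol: 6 enzymes of serine synthesis and one-carbon metabolism, 7 amino acid transporters, 6 other enzymes of amino acid synthesis and 13 tRNA synthetases. The array measured 30 of the 32 with 60 probe sets that carry a single gene symbol, out of 12393 such genes in the series. No value is given for Pycr1, which makes proline, or for Mars1, which charges methionine tRNA. The array names the synthetases by older symbols (Sars for Sars1), and the current ones are used throughout. The data were 10 single-colour Affymetrix arrays of total RNA. The dendritic cells were derived in culture from bone marrow of C57BL/6 mice aged 6 to 8 weeks, with 1 array for each condition. In each of the genotypes, CD14-deficient (Cd14-/-) and wild type, cells received 1 µg/ml of smooth LPS with 50 nM thapsigargin for 48 or 60 h, received the LPS alone for 48 or 60 h, or were left unstimulated and harvested 24 h after plating. All cultures had been grown with medium from tumour cells that secrete GM-CSF and were used when more than 90% of cells carried CD11c. The series was designed to find cell-death genes controlled by the transcription factor NFAT, and it holds no repeat of any condition.

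As background, protein synthesis needs each amino acid to be imported or made and then joined to its own tRNA by a dedicated synthetase. When amino acids run short or unfolded protein builds up in the endoplasmic reticulum, kinases phosphorylate the initiation factor eIF2, bulk translation slows, and the transcription factor ATF4 is translated more. ATF4 pairs with C/EBP proteins and binds C/EBP-ATF response elements in many of the genes listed here, a program known as the integrated stress response. LPS, a bacterial cell wall component, is sensed by Toll-like receptor 4 with the help of CD14. Thapsigargin inhibits the pump that fills the endoplasmic reticulum with calcium, which raises calcium in the cytosol, activates calcineurin and NFAT, and also disturbs protein folding in that compartment.

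The RefSeq promoter table (GRCm38.p6, 250 bases before to 50 bases after each gene's start) held an entry for 24 of the 32 genes. It was searched on both strands for TGATGNAA, the core of the C/EBP-ATF response element. The motif was present in 10 of these 24 genes (41.7%), beside 1219 of all 27025 genes in the table (4.51%) and 164 of 6159 genes that were also tested here (2.66%). The matches of these genes other than Aars1 are given with 10 bases on each side, in the direction of the gene, with the motif or its reverse complement in capitals. They are given because the genes that carry them are compared with the rest later on.
Slc7a11 (chr3:50443643-50443689, minus strand): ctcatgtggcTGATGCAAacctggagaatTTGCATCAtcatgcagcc
Slc1a4 (chr11:20332700-20332727, minus strand): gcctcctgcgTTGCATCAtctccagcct
Asns (chr6:7693215-7693242, minus strand): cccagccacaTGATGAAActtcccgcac
Pycr1 (chr11:120643834-120643861, minus strand): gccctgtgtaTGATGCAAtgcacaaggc
Got1 (chr19:43524690-43524717, minus strand): attgcattggTTGCATCAtacaagcctc
Gars1 (chr6:55037961-55037988, plus strand): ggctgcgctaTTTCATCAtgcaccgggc
Iars1 (chr13:49682127-49682154, plus strand): actgtcagtaTTGCATCAcctccagacg
Tars1 (chr15:11399656-11399683, minus strand): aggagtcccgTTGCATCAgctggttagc
Yars1 (chr4:129189896-129189923, plus strand): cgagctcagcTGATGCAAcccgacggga
Counted from the gene's start, where +1 is the first transcribed base, these matches began at −66 and −47 in Slc7a11, −4 in Slc1a4, −23 in Asns, −103 in Pycr1, −102 in Got1, −30 in Gars1, 8 in Iars1, −15 in Tars1 and 4 in Yars1. Of the tRNA synthetases with an entry, Sars1, Eprs1 and Mars1 had no match in the window.

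The bases before the start of Slc7a11 and Asns are given in full, because many of the values given later are theirs. The capitals again mark the matches.
Slc7a11 (chr3:50443614-50443863, minus strand): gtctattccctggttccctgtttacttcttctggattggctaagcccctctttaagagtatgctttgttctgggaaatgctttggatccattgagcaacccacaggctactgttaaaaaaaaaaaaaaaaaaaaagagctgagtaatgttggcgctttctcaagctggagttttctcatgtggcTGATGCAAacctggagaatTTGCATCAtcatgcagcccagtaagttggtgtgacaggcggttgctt
Asns (chr6:7693210-7693459, minus strand): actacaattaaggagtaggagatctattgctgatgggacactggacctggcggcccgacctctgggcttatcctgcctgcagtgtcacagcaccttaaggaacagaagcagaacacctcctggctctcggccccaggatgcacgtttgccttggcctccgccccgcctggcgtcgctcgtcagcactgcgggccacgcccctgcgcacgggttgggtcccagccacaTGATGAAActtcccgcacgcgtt
The 2 Slc7a11 matches face in opposite directions. CACGTG, the E-box, was found in 4 of the 24 promoters (16.7%; Aldh18a1, Aars1, Iars1 and Tars1), beside 8.09% of all genes and 12.7% of tested ones. GAAANNGAA, the core of the interferon-stimulated response element, was found in 0 of 24, beside 9.76% of all genes and 8.82% of tested ones. A match describes the letters in these windows, and it shows neither binding nor control.

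Values are MAS5 signals scaled to a common trimmed mean, and a signal under 13.4, the pooled 25th percentile, was treated as that floor. Of the 30 measured genes, 26 passed the filter, a signal above the pooled median of 99.2 on at least 2 arrays, as did 7474 genes in all. Log2 changes are from 1 limma fit to all 10 arrays and are given with their standard error. The fit's residual spread is that of the 60 h minus 48 h differences among the stimulated conditions, so its p-values do not cover the spread between mice or cultures. The Cd14 signal was between 1.85 and 7.35, under the floor, on the CD14-deficient arrays, against 15538 to 17729 in stimulated and 1499 in unstimulated wild-type cells. The array of CD14-deficient cells after 48 h of LPS stood apart from the rest on the second principal component (score 60.4, against −25.0 to 5.12 elsewhere). It had the smallest cRNA yield (15 µg, against 19 to 53.1 µg elsewhere) and a signal of 114 at the 18S 5′ control, against 217 to 11926 elsewhere. The array of wild-type cells after 60 h of LPS came next on both, with 19 µg and 217. The remaining arrays had 2393 or more at that control. The RNA integrity number was 10 on the CD14-deficient LPS array at 48 h, against 8.4 to 10 elsewhere, so it did not set that array apart. Dendritic cell markers were above the floor for 13 or 14 of 14 genes on all 10 arrays. The summed signal of the macrophage markers was 10770 on that array and 32666 on the CD14-deficient LPS array at 60 h. In such bulk RNA, fewer cells of a type and less RNA per cell cannot be told apart.

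**Figure D1:**
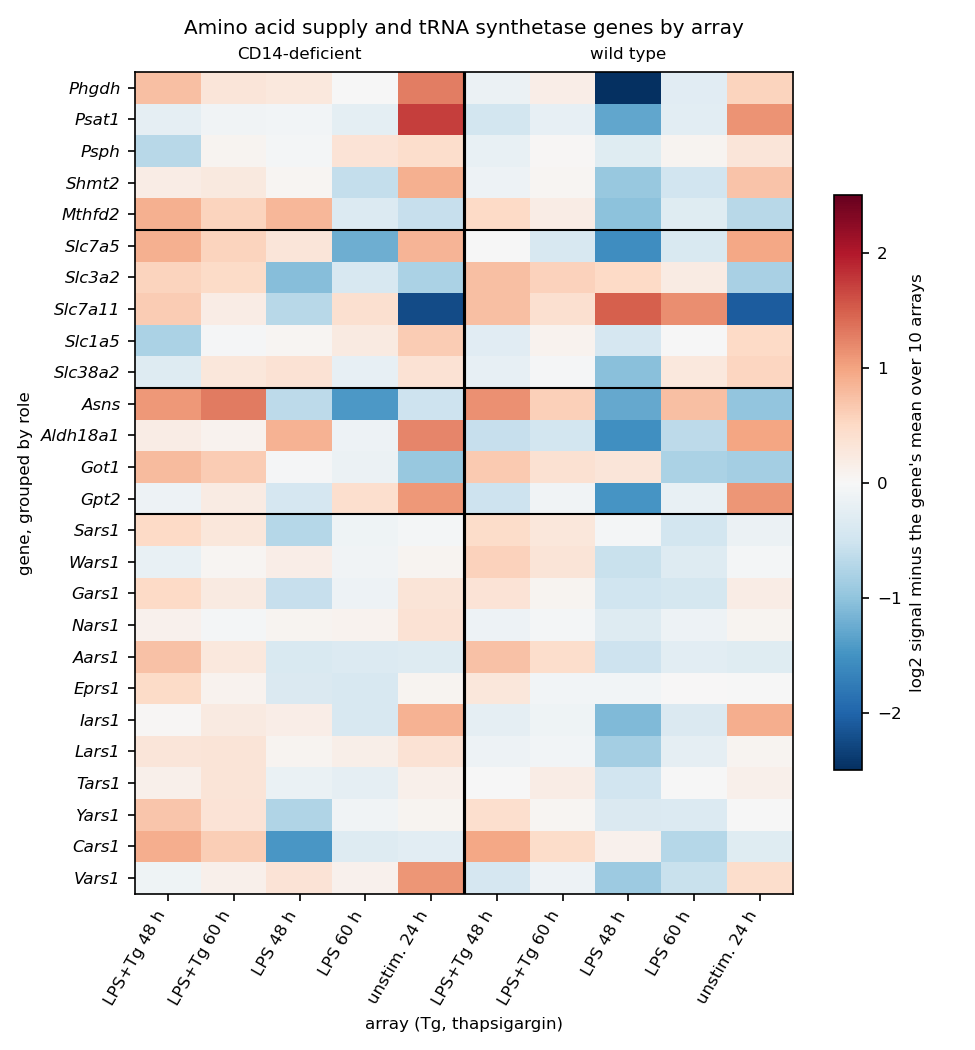
Log2 signal of the 26 genes past the filter (rows, grouped by role from serine enzymes at the top to tRNA synthetases at the bottom) on the 10 arrays (columns; CD14-deficient left, wild type right), each relative to its mean over the 10 arrays. Colours stop at 2.5 in both directions. Of the 26 genes, 15 had their lowest value in wild-type cells after 48 h of LPS, and Slc7a11 was lowest on the 2 unstimulated arrays.

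The array of wild-type cells after 48 h of LPS carried the lowest value for 15 of the 26 genes, and for 18.9% of all tested genes. It had neither the low cRNA yield nor the low 18S signal described above, with 31.2 µg and 7417. Every comparison with wild-type LPS that follows draws on it, so values at 48 and at 60 h are given apart.

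LPS was first compared with no stimulation in each genotype. In CD14-deficient cells 0 of the 26 genes rose (2.17% of all tested genes did) and 0 fell (2.01% did), with 7 (26.9%, beside 22.6% of all tested genes) at an unadjusted p under 0.05 in limma. In wild-type cells 1 rose (7.69% of all tested genes did) and 5 fell (8.24% did): Slc7a11 rose, and Psat1, Aldh18a1, Gpt2, Iars1 and Vars1 fell, with 10 (38.5%, beside 33.5%) at an unadjusted p under 0.05. The median log2 change of the 26 genes was −0.46 in CD14-deficient cells, beside 0.03 for all tested genes, with 22 of 26 below 0. It was −0.41 in wild-type cells, beside −0.03, with 21 of 26 below 0. LPS cells were harvested at least 24 h later than unstimulated ones, so the change includes time in culture, and the single unstimulated array of each genotype was assumed to vary like the others.

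Among the transporters, Slc7a11 had the largest fitted increase in both genotypes. It encodes the light chain of system xc-, which imports cystine in exchange for glutamate and so feeds glutathione synthesis. In CD14-deficient cells its signal was 864 at 48 h and 1859 at 60 h of LPS, against 297 without stimulation. In wild-type cells it was 3958 at 48 h and 3128 at 60 h, against 333. Both LPS arrays lay above the unstimulated one in each genotype. The log2 change was 2.09 ± 0.49 in CD14-deficient cells, which did not pass (limma, adjusted p = 0.0793). It was 3.40 ± 0.49 in wild-type cells (adjusted p = 0.0116), or 11.9-fold at 48 h and 9.40-fold at 60 h. The difference between the genotypes' responses, −1.31 ± 0.70, did not pass (adjusted p = 0.66).

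Slc3a2 encodes CD98, the heavy chain that carries both Slc7a11 and Slc7a5 to the membrane. Its signal was 2263 and 3587 at 48 and 60 h of LPS in CD14-deficient cells, against 2754 unstimulated, a log2 change of 0.05 ± 0.31 (adjusted p = 0.946). In wild-type cells it was 6708 and 5455, against 2718, a change of 1.15 ± 0.31 (adjusted p = 0.0544). The CD14-deficient LPS arrays thus lay on both sides of the unstimulated value, and the wild-type ones above it. The difference between these responses was −1.10 ± 0.43 and did not pass (adjusted p = 0.587).

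Slc7a5, or LAT1, is the other partner of CD98 here and imports leucine and other large neutral amino acids. Its signal was 468 and 162 under LPS in CD14-deficient cells, against 686 unstimulated, and 129 and 290 in wild-type cells, against 739. All 4 LPS arrays were below the unstimulated array of their genotype, yet neither change passed, with −1.32 ± 0.71 in CD14-deficient cells (adjusted p = 0.33) and −1.93 ± 0.71 in wild-type cells (adjusted p = 0.121). Slc1a5, the glutamine transporter ASCT2, had signals of 458 and 514 in CD14-deficient LPS cells, against 688 (−0.50 ± 0.26, adjusted p = 0.309), and of 331 and 440 in wild-type LPS cells, against 626 (−0.72 ± 0.26, adjusted p = 0.117). Slc38a2, or SNAT2, an inducible importer of small neutral amino acids, was at 1300.2 and 869 in CD14-deficient LPS cells, against 1292 (−0.28 ± 0.52, adjusted p = 0.788), and at 488 and 1209 in wild-type LPS cells, against 1465 (−0.93 ± 0.52, adjusted p = 0.269). None of these importers was above its unstimulated level on both LPS arrays of a genotype.

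**Figure D2:**
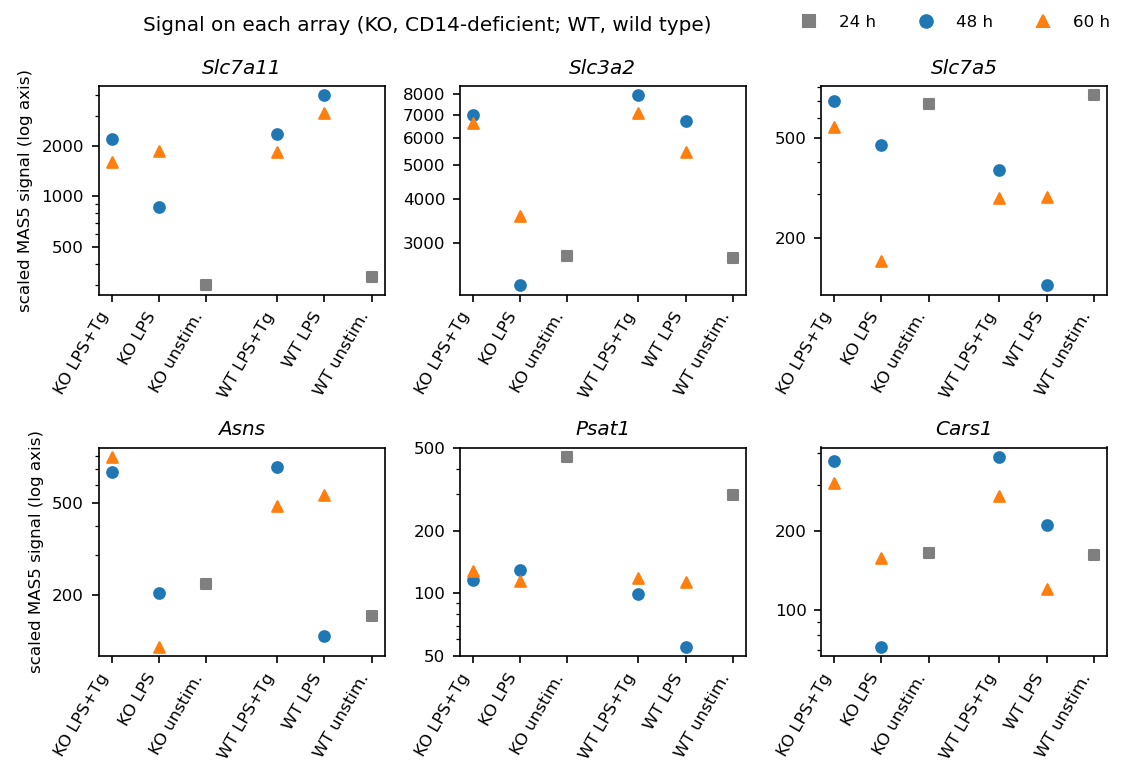
Scaled MAS5 signal (log axis) of 6 genes on each of the 10 arrays; squares mark 24 h, circles 48 h and triangles 60 h, with CD14-deficient conditions (KO) left of wild-type ones (WT). Slc7a11 and Slc3a2 are lower in CD14-deficient than in wild-type LPS cells at both times. Slc7a5 and Asns differ in opposite directions at 48 and 60 h.

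The fitted LPS changes of the serine and one-carbon genes were below 0 except for Mthfd2. Psat1, the aminotransferase of serine synthesis, had a signal of 129 and 115 at 48 and 60 h of LPS in CD14-deficient cells, against 455 unstimulated, and the change of −1.90 ± 0.41 did not pass (adjusted p = 0.0661). In wild-type cells it was 55.3 and 113, against 299, and fell by 1.92 ± 0.41 on the log2 scale (adjusted p = 0.0323). The values at 48 and 60 h lay below the unstimulated value in both genotypes. Phgdh, the first enzyme of the pathway, was at 119 and 98.4 in CD14-deficient LPS cells, against 240 (−1.14 ± 0.91, adjusted p = 0.506). It was at 12.3, under the floor, and 81.7 in wild-type LPS cells, against 146 (−2.14 ± 0.91 with the floor in place of the 48 h value, adjusted p = 0.162). Shmt2, which makes glycine and one-carbon units from serine in mitochondria, was at 236 and 150.2 in CD14-deficient LPS cells, against 421 (−1.16 ± 0.37, adjusted p = 0.146), and at 117 and 162 in wild-type LPS cells, against 370.4 (−1.43 ± 0.37, adjusted p = 0.0533). Both Phgdh and Shmt2 were thus below the unstimulated value on all 4 LPS arrays. Psph, the last enzyme of serine synthesis, had a fitted change of −0.30 ± 0.29 in CD14-deficient cells (adjusted p = 0.595) and of −0.42 ± 0.29 in wild-type cells (adjusted p = 0.358). Mthfd2, which oxidises the folate carrier in mitochondria, had a signal of 2536 and 1124 in CD14-deficient LPS cells, against 952, and of 701 and 1153 in wild-type LPS cells, against 889. Its changes, 0.83 ± 0.51 in CD14-deficient cells and 0.02 ± 0.51 in wild-type ones, did not pass (adjusted p = 0.385 and 0.985).

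Among the other enzymes of amino acid synthesis, Aldh18a1 and Gpt2 fell in wild-type LPS cells. Aldh18a1, which starts proline synthesis from glutamate, was at 611 and 306 in CD14-deficient LPS cells, against 783 unstimulated (−0.85 ± 0.52, adjusted p = 0.382). It was at 115 and 211 in wild-type LPS cells, against 660.1, and fell by 2.08 ± 0.52 (adjusted p = 0.0485). Gpt2, the mitochondrial alanine aminotransferase, was at 48.4 and 87.0 in CD14-deficient LPS cells, against 137 (−1.07 ± 0.41, adjusted p = 0.198), and at 23.3 and 56.7 in wild-type LPS cells, against 139, where it fell by 1.93 ± 0.41 (adjusted p = 0.0321). Both genes were below the unstimulated value on all 4 LPS arrays. Got1, the cytosolic aspartate aminotransferase, was above it on all 4, with 1404 and 1298 in CD14-deficient LPS cells, against 744, and 1767 and 819 in wild-type LPS cells, against 794. Its changes, 0.86 ± 0.34 and 0.60 ± 0.34, did not pass (adjusted p = 0.208 and 0.274). Asns, which makes asparagine, was at 204 and 120 in CD14-deficient LPS cells, against 224, and at 133 and 541 in wild-type LPS cells, against 163. Its wild-type values lay on both sides of the unstimulated one.

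By the brightest probe set, all 12 measured tRNA synthetases had a fitted LPS change below 0 in both genotypes, but most changes were small. The range was −1.0 to −0.03 in CD14-deficient cells and −1.65 to −0.01 in wild-type cells. Dimmer probe sets rose in wild-type cells for Eprs1 (795 to 1030 and 1061, and 432 to 596 and 677) and Sars1 (930 to 981 and 1034). In CD14-deficient cells the probe sets of Eprs1 and of Wars1 did not share a direction. Iars1, which charges isoleucine tRNA, was at 769 and 517 in CD14-deficient LPS cells, against 1260 unstimulated (−1.0 ± 0.39, adjusted p = 0.202). In wild-type LPS cells it was at 319 and 536, against 1297, and fell by 1.65 ± 0.39 (adjusted p = 0.0414). Vars1, which charges valine tRNA, was at 274 and 233 in CD14-deficient LPS cells, against 460 (−0.86 ± 0.29, adjusted p = 0.156), and at 114 and 147 in wild-type LPS cells, against 292, where it fell by 1.17 ± 0.29 (adjusted p = 0.0461). Gars1 for glycine and Lars1 for leucine had the next lowest changes in wild-type cells, −0.65 ± 0.28 and −0.61 ± 0.26, and did not pass (adjusted p = 0.172 and 0.168). Aars1, Cars1, Eprs1 and Sars1, for alanine, cysteine, glutamate with proline, and serine, lay between −0.10 and −0.01 there.

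**Figure D3:**
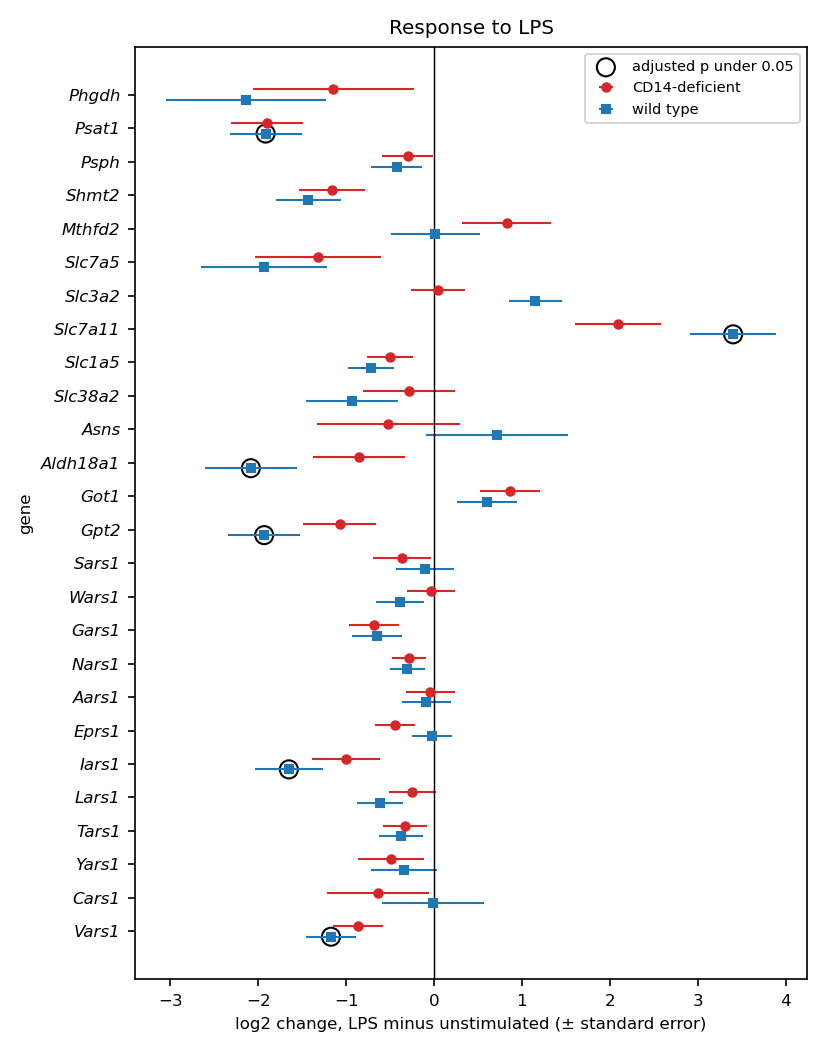
Log2 change under LPS relative to no stimulation (x axis, mean of 48 and 60 h, bars ± standard error from limma) for the 26 genes (y axis) in CD14-deficient (circles) and wild-type cells (squares). Rings mark an adjusted p under 0.05, which 0 genes reached in CD14-deficient cells and 6 in wild-type cells.

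The counts depended on the filter and on single arrays. With no filter on dim genes, Shmt1 alone was called in wild-type cells, as lower, and Slc7a11 no longer passed. In CD14-deficient cells, 5 genes were called without the LPS array at 48 h and 7 without the one at 60 h, with Slc7a11 higher and Psat1 lower in both. These fits called 15.9% and 38.6% of all tested genes. In wild-type cells, 0 of 26 were called without the LPS array at 48 h (2.27% of all tested genes), and Psat1 and Phgdh, the last from a value under the floor, without the one at 60 h (3.13% of all tested genes). Leaving out any 1 of the 4 LPS plus thapsigargin arrays left Slc7a11 alone called there (5.24% to 5.34% of all tested genes). With either CD14-deficient LPS array left out, 11 were called in wild-type cells, 2 higher (Slc7a11 and Slc3a2) and 9 lower (Slc1a5, Slc7a5, Gars1, Aldh18a1, Gpt2, Vars1, Psat1, Iars1 and Shmt2). Of all tested genes, 43.8% and 43.9% were called in these fits, so a share of 42.3% for the 26 is near the background. Leaving out a CD14-deficient LPS array leaves that condition with a lone array, which then adds nothing to the residual spread. The summed macrophage marker signal was 10770 and 32666 in CD14-deficient LPS cells, against 48538 unstimulated, and 36975 and 29374 in wild-type LPS cells, against 43453. Its part in these changes was not tested.

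CD14-deficient cells were next compared with wild-type cells under LPS alone. In limma 0 of the 26 genes rose (2.57% of all tested genes did) and 0 fell (2.61% did), with 6 (23.1%, beside 27.4% of all tested genes) at an unadjusted p under 0.05. The median difference was 0.33, beside 0.08 for all tested genes, and it was 0.15 without the wild-type array at 48 h. At both times, 0 genes were at least 2-fold higher (3.3% of all tested genes were) and 0 at least 2-fold lower (2.19% were).

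The lowest differences between CD14-deficient and wild-type LPS cells were those of the 2 chains of system xc-. Slc7a11 stood at 864 and 1859 in CD14-deficient LPS cells, against 3958 and 3128 in wild-type LPS cells, a log2 difference of −1.47 ± 0.40 (adjusted p = 0.0862). Slc3a2 stood at 2263 and 3587, against 6708 and 5455, a difference of −1.09 ± 0.25 (adjusted p = 0.0649). Both genes were lower at 48 and at 60 h (24.5% of all tested genes were), and neither passed. Without the CD14-deficient array at 48 h, in a fit that called 17.8% of all tested genes, the same differences were −0.73 (adjusted p = 0.0225) and −0.66 (adjusted p = 0.0183). They were −2.22 (adjusted p = 0.000668) and −1.51 (adjusted p = 0.000914) without the one at 60 h.

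Several enzymes and synthetases lay on the opposite side. Vars1 was at 274 and 233 in CD14-deficient LPS cells, against 114 and 147 in wild-type LPS cells (0.96 ± 0.24, adjusted p = 0.0727). Aldh18a1 was at 611 and 306, against 115 and 211 (1.47 ± 0.43, adjusted p = 0.0961). Both genes were higher at 48 and at 60 h, and neither passed. Phgdh was at 119 and 98.4, against 12.3 and 81.7 (1.71 ± 0.74 with the floor in place of 12.3, adjusted p = 0.202), which is at least 8.91-fold at 48 h and 1.2-fold at 60 h. By the brightest probe set, 10 of the 26 genes were higher at both times (38.5%, beside 32.7% of all tested genes) and 3 lower at both (11.5%, beside 24.5%). Among the 10, a dimmer probe set past the filter was lower at 60 h for Phgdh and Psat1, and at 48 h for Nars1 and Wars1. At 60 h the other Phgdh probe sets were at 38.9, 46.3 and 40.8 in CD14-deficient LPS cells, against 46.7, 51.4 and 47.0 in wild-type LPS cells. The remaining genes, Mthfd2, Slc38a2, Slc7a5 and Asns among them, differed in opposite directions at the 2 times by the brightest probe set. Slc7a5, for one, was at 468 and 162 in CD14-deficient LPS cells, against 129 and 290 in wild-type LPS cells, and Asns at 204 and 120, against 133 and 541. For Asns this depended on the probe set. A dimmer one was at 123.1 and 84.8 in CD14-deficient LPS cells, against 124.7 and 360.6 in wild-type LPS cells, lower at both times. Without the CD14-deficient array at 60 h, 10 genes were called, 6 of them higher (Mthfd2, Slc38a2, Aldh18a1, Vars1, Iars1 and Shmt2) and 4 lower (Slc7a11, Slc3a2, Sars1 and Cars1). That fit sets the array that stands apart against both wild-type LPS arrays after the term for time, and it called 44.3% of all tested genes.

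Unstimulated cells of the genotypes were compared by the brightest probe set, from 1 array each. The CD14-deficient minus wild-type log2 difference ran from −0.18 for Slc38a2 to 0.72 for Phgdh. It was −0.16 for Slc7a11 and 0.02 for Slc3a2. Vars1 (0.65) and Psat1 (0.61) followed Phgdh at the upper end. The other Phgdh probe sets were at 322, 447 and 180 in CD14-deficient cells, against 165, 256 and 120 in wild-type cells. With 1 array each, these differences have no test.

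Thapsigargin was then added to LPS. In CD14-deficient cells 1 of the 26 genes rose, Slc3a2 (3.43% of all tested genes did), and 0 fell (3.2% did), with 10 (38.5%, beside 28.8% of all tested genes) at an unadjusted p under 0.05 in limma. In wild-type cells 0 rose (0.0134% of all tested genes did) and 0 fell (0.0401% did), with 4 (15.4%, beside 10.3%) at an unadjusted p under 0.05. The median difference was 0.45 in CD14-deficient cells, beside −8.1e-05 for all tested genes, and 0.57 in wild-type cells, beside 0.11. It was 0.11 in CD14-deficient cells without their LPS array at 60 h, and 0.15 in wild-type cells without theirs at 48 h. With thapsigargin, 15 of 26 genes were higher at both times in CD14-deficient cells (57.7%, beside 32.1% of all tested genes), and 20 of 26 in wild-type cells (76.9%, beside 44.1%).

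Slc3a2 had a signal of 6991 and 6615 at 48 and 60 h with thapsigargin in CD14-deficient cells, against 2263 and 3587 with LPS alone. It rose by 1.26 ± 0.25 (limma, adjusted p = 0.0426), or 3.09-fold at 48 h and 1.84-fold at 60 h. In wild-type cells it was 7940 and 7049, against 6708 and 5455 (0.31 ± 0.25, adjusted p = 0.709). The difference between the genotypes' thapsigargin effects, 0.95 ± 0.35, did not pass (adjusted p = 0.344). Without any 1 of the 4 thapsigargin arrays the Slc3a2 call was lost, as it was without either wild-type LPS array (adjusted p up to 0.339 over all alternatives). It did not pass with no filter on dim genes either (adjusted p = 0.129).

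Asns was the one gene at least 2-fold higher at both times in CD14-deficient cells (2.77% of all tested genes were, and 4.03% were 2-fold lower, with 0 of the 26 among them). Its signal was 684 and 792 with thapsigargin in CD14-deficient cells, against 204 and 120 with LPS alone. The increase was 3.35-fold at 48 h and 6.61-fold at 60 h, and the log2 difference of 2.24 ± 0.66 did not pass (adjusted p = 0.0942). In wild-type cells Asns was at 714 and 487, against 133 and 541, so that it was 5.35-fold higher at 48 h and 0.90-fold at 60 h. The direction at 60 h depended on the probe set. A dimmer one was at 508 and 466 in wild-type cells, against 125 and 361, higher at both times. In wild-type cells 0 of 26 genes were 2-fold higher at both times (1.1% of all tested genes were) and 0 were 2-fold lower (1.74% were).

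Slc7a11 was at 2185 and 1594 with thapsigargin in CD14-deficient cells, against 864 and 1859 with LPS alone, and the times ran in opposite directions (0.56 ± 0.40, adjusted p = 0.405). In wild-type cells it was at 2355 and 1842, against 3958 and 3128, which is 0.60-fold at 48 h and 0.59-fold at 60 h (−0.76 ± 0.40, adjusted p = 0.567). It was the one gene of the 26 with a fitted difference below 0 there. With thapsigargin the 4 arrays of both genotypes lay between 1594 and 2355.

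The tRNA synthetases had fitted differences above 0 for 9 of 12 genes in CD14-deficient cells and 12 of 12 in wild-type cells. Aars1 was at 1585 and 1139 with thapsigargin in CD14-deficient cells, against 727 and 746 (0.87 ± 0.23, adjusted p = 0.074). In wild-type cells Aars1 was at 1579 and 1280, against 661 and 788 (0.98 ± 0.23, adjusted p = 0.264). Aars1 was thus higher at both times in each genotype. Cars1 was too, with 373 and 306, against 72.2 and 158, in CD14-deficient cells (1.66 ± 0.47, limma adjusted p = 0.0882). In wild-type cells Cars1 was at 386 and 273, against 212 and 121 (1.02 ± 0.47, adjusted p = 0.524). Sars1 was at 2111 and 1833, against 908 and 1386, in CD14-deficient cells (0.81 ± 0.27, adjusted p = 0.119) and at 2058 and 1824, against 1456 and 1089, in wild-type cells (0.62 ± 0.27, adjusted p = 0.502). Sars1 was likewise higher at both times in each genotype. Of all tested genes, 32.1% were higher at both times in CD14-deficient cells and 44.1% in wild-type cells. Gars1 and Yars1, for glycine and tyrosine, differed by 0.72 ± 0.23 and 0.94 ± 0.31 in CD14-deficient cells (adjusted p = 0.112 and 0.115).

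Wars1 charges tryptophan tRNA and is a known interferon-induced gene. It was at 333 and 388 with thapsigargin in CD14-deficient cells, against 420 and 356 (−0.10 ± 0.22, adjusted p = 0.788). In wild-type cells it was at 565 and 473, against 257 and 301 (0.89 ± 0.22, adjusted p = 0.302). The difference between the genotypes' effects was −1.0 ± 0.32 and did not pass (adjusted p = 0.295). Iars1 and Vars1, which fell under LPS in wild-type cells, differed by 0.25 ± 0.32 and −0.22 ± 0.24 with thapsigargin in CD14-deficient cells (adjusted p = 0.648 and 0.574) and by 0.57 ± 0.32 and 0.46 ± 0.24 in wild-type cells (0.58 and 0.562).

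Among the enzymes, Got1 was at 2462 and 2218 with thapsigargin in CD14-deficient cells, against 1404 and 1298 (0.79 ± 0.28, adjusted p = 0.131). In wild-type cells Got1 was at 2232 and 1847, against 1767 and 819 (0.75 ± 0.28, adjusted p = 0.444). Got1 was thus higher at both times in both genotypes. Mthfd2 was at 2636 and 2096 in CD14-deficient cells, against 2536 and 1124 (0.48 ± 0.42, adjusted p = 0.489), and at 2013 and 1634 in wild-type cells, against 701 and 1153 (1.01 ± 0.42, adjusted p = 0.484). Psat1 gave no such difference in CD14-deficient cells by its brightest probe set, with 116 and 128, against 129 and 115. Its other probe set was lower at both times in CD14-deficient cells, with 56.9 and 72.4, against 99.0 and 95.6. Slc1a5 was the lowest of the 26 there, at 255 and 434, against 458 and 514 (−0.54 ± 0.21, adjusted p = 0.161).

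**Figure D4:**
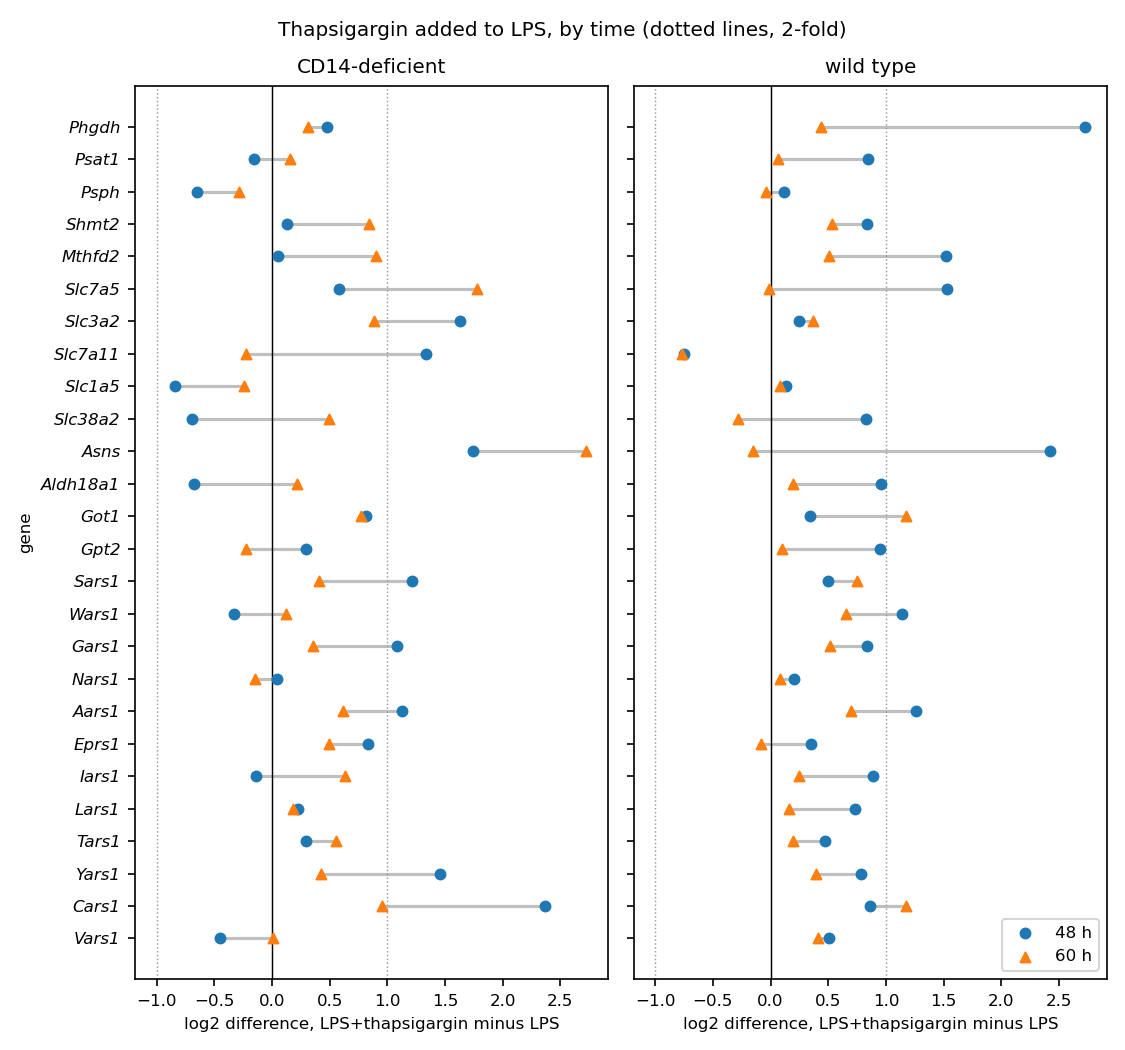
Log2 difference of LPS plus thapsigargin minus LPS (x axis) for the 26 genes (y axis) at 48 h (circles) and 60 h (triangles), in CD14-deficient (left) and wild-type cells (right). Dotted lines mark 2-fold; Asns is past it at both times in CD14-deficient cells, and both Slc7a11 points lie below 0 in wild-type cells.

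Leaving out an array moved these counts. In CD14-deficient cells, 4 were called without the LPS array at 48 h (Slc7a5, Slc3a2, Asns and Shmt2, all higher; 28.8% of all tested genes). Without the one at 60 h, 9 were called (8 higher: Slc7a11, Gars1, Slc3a2, Sars1, Aars1, Eprs1, Cars1 and Yars1, and Slc1a5 lower; 38.7% of all tested genes). Leaving out either wild-type LPS array left Asns alone called in CD14-deficient cells (2.69% and 2.65% of all tested genes). In wild-type cells, leaving out either CD14-deficient LPS array gave 6 calls, Gars1, Sars1, Wars1, Aars1 and Cars1 as higher and Slc7a11 as lower (7.84% and 7.95% of all tested genes). The summed macrophage markers were 18687 and 16346 with thapsigargin, against 10770 and 32666, in CD14-deficient cells, and 21001 and 17724, against 36975 and 29374, in wild-type cells. The summed neutrophil markers were 4814 and 3281, against 8555 and 8530, and 4559 and 4168, against 10475 and 12359. Their part in these differences was not tested.

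The genes with TGATGNAA in the promoter window were also set beside those without it, as a description. With thapsigargin in CD14-deficient cells the 8 tested genes with the motif (Slc7a11, Asns, Got1, Gars1, Aars1, Iars1, Tars1 and Yars1) had a median log2 difference of 0.76, and 8 of 8 were above 0. These are means of 48 and 60 h. At single times Slc7a11 was below 0 at 60 h (−0.22) and Iars1 at 48 h (−0.14). The 11 genes with an entry and no match had a median of 0.40, with 7 of 11 above 0, among them Slc3a2 and Sars1. In wild-type cells the medians were 0.63 with and 0.52 without the motif, and 7 of 8 and 11 of 11 genes were above 0. The 7 tested genes with no entry had a median of −0.05 in CD14-deficient cells, with 3 of 7 above 0. In wild-type cells theirs was 0.46, with 7 of 7 above 0. Under LPS the medians were −0.41 with and −0.44 without the motif in CD14-deficient cells, and −0.22 with and −0.93 without it in wild-type cells. Psat1, Aldh18a1 and Gpt2, which fell in wild-type cells, have no match in their windows, while Iars1 has one.

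With thapsigargin present the fitted differences between the genotypes were mostly small. At both times 16 of the 26 genes were higher in CD14-deficient cells (61.5%, beside 31.1% of all tested genes) and 4 lower (15.4%, beside 38.7%). Of the 26, 0 passed for CD14-deficient against wild-type cells (0.0268% of all tested genes did), with 0 (beside 4.4%) at an unadjusted p under 0.05 in limma, and the median difference was 0.17. The median was 0.05 without the CD14-deficient array at 48 h and 0.10 without the wild-type one at 60 h. Slc7a5 had the largest difference, with 702 and 556 in CD14-deficient cells, against 374 and 288 in wild-type cells (0.93 ± 0.58). The difference between the genotypes' LPS responses passed for 0 of 26 genes (0% of all tested genes), with 1 (3.85%, beside 8.2%) at an unadjusted p under 0.05. The difference between their thapsigargin effects likewise passed for 0 (0%), with 2 (7.69%, beside 13.3%) at an unadjusted p under 0.05. The shift between 48 and 60 h passed for 0 (0%), with 3 (11.5%, beside 9.82%). With the 60 h LPS array of CD14-deficient cells left out, the LPS responses differed for 3 genes (Slc7a11, Slc3a2 and Cars1, all lower; 18.3% of all tested genes) and the thapsigargin effects for 5 (those 3 higher, Wars1 and Vars1 lower; 25.4%). With 3 residual degrees of freedom, a p that misses the threshold does not show that the genotypes act alike.

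The 4 measured genes that did not pass the filter stayed dim. Shmt1, the cytosolic partner of Shmt2, was at 34.8 and 30.3 under LPS in CD14-deficient cells, against 110 unstimulated, and at 17.8 and 11.6 in wild-type LPS cells, against 92.6. Slc1a4, a transporter of serine and alanine, ran from 32.8 to 88.0 over the 10 arrays by its brightest probe set. Its other probe sets ran from 3.14 to 107 and from 5.03 to 69.7. The last was at 56.8 and 69.7 with thapsigargin in CD14-deficient cells, against 15.8 and 15.1 with LPS alone. In wild-type cells it was at 38.7 and 34.5, against 5.03 and 13.0. The brightest was mixed there, with 32.8 and 49.1, against 34.1 and 40.5. Slc7a1, an importer of arginine and lysine, ran from 7.62 to 28.0, and Cth, which makes cysteine from cystathionine, from 6.39 to 36.8. Values of Slc7a1, Cth and the dimmer Slc1a4 probe sets crossed the floor of 13.4 and carry no order below it.

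Where several probe sets of a gene passed the filter, they mostly ran together. Of 12 such genes, all probe sets shared a direction for 11 in the comparison of CD14-deficient with wild-type LPS cells (all but Nars1). Under LPS they did so for 10 in CD14-deficient cells (not Eprs1 and Wars1) and for 10 in wild-type cells (not Eprs1 and Sars1). With thapsigargin they did so for 9 in CD14-deficient cells (not Aldh18a1, Nars1 and Wars1) and for 11 in wild-type cells (not Eprs1). These counts do not cover single times. Between CD14-deficient and wild-type LPS cells, probe sets parted at 60 h for Phgdh, Psat1 and Shmt2, and at 48 h for Asns, among others. Slc3a2 and Slc7a11 have 1 probe set each, so no second one checks them.

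Stress response genes that act above or beside these members were examined for the same contrasts. Atf4 had a signal of 3211 and 3093 in CD14-deficient LPS cells, against 2243 unstimulated (0.49 ± 0.16, adjusted p = 0.148). In wild-type LPS cells Atf4 was at 7207 and 7537, against 2145, and rose by 1.78 ± 0.16 (adjusted p = 0.00402). Atf4 was lower in CD14-deficient than in wild-type LPS cells by a log2 difference of −1.23 ± 0.13 (adjusted p = 0.0169). With thapsigargin Atf4 was at 10074 and 9343 in CD14-deficient cells, and rose by 1.62 ± 0.13 (adjusted p = 0.0109). Ddit3, which encodes CHOP, rose too, at 5108 and 4915 with thapsigargin in CD14-deficient cells, against 479 and 1102 with LPS alone (2.79 ± 0.37, adjusted p = 0.0184). Trib3, a feedback inhibitor of ATF4, rose by 2.31 ± 0.32 there (adjusted p = 0.0195). Of 19 tested stress response regulators and other ATF4 targets, 3 rose and 0 fell under LPS in CD14-deficient cells (2.17% and 2.01% of all tested genes did). In wild-type cells 8 of them rose and 0 fell (7.69% and 8.24% of all tested genes did). Of the same 19, 0 were higher and 4 lower in CD14-deficient than in wild-type LPS cells (2.57% and 2.61% of all tested genes were). With thapsigargin 6 rose in CD14-deficient cells (3.43% of all tested genes did) and 0 in wild-type cells (0.0134% did). In wild-type cells 14 of the 19 had a fitted difference above 0, with a median of 0.45 beside 0.11 for all tested genes. Atf4 was at 10770 and 9469 with thapsigargin in wild-type cells, against 7207 and 7537 with LPS alone (0.45 ± 0.13, adjusted p = 0.355). Ddit3 and Trib3 were also higher at both times there and did not pass (adjusted p = 0.592 and 0.359).

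Neighbouring pathways gave the following counts under LPS. Of all tested genes, 2.17% rose and 2.01% fell in CD14-deficient cells, and 7.69% rose and 8.24% fell in wild-type cells. Of 9 other tested cytosolic synthetases and scaffold genes, 0 passed in CD14-deficient cells, and in wild-type cells Farsb, a subunit of phenylalanine tRNA synthetase, fell by 1.16 ± 0.24 (adjusted p = 0.0308). With thapsigargin in CD14-deficient cells the scaffold gene Eef1e1 rose by 0.82 ± 0.16 (adjusted p = 0.0414). Of 7 mitochondrial synthetases, Ears2, for glutamate, rose by 3.44 ± 0.42 in CD14-deficient cells (adjusted p = 0.0191) and by 2.09 ± 0.42 in wild-type cells (adjusted p = 0.0271). Of 9 other serine and one-carbon genes, Mthfd1 alone fell in CD14-deficient cells (−1.29 ± 0.23, adjusted p = 0.0414). In wild-type cells Gart (−1.90 ± 0.35, adjusted p = 0.0222), Aldh1l1 (−1.77 ± 0.36, adjusted p = 0.0286) and Mthfd1 (−1.71 ± 0.23, adjusted p = 0.00964) fell. Gart makes purines, and the other 2 handle folate-bound carbon.

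Of 13 other tested amino acid transporters, the glutamate transporter Slc1a2 alone rose under LPS in CD14-deficient cells (2.17% of all tested genes did). Its signal was 187 and 387 there, against 1.42 unstimulated, which is under the floor, so that the log2 increase was at least 4.33 as counted from the floor (adjusted p = 0.00692). In wild-type cells 3 rose (7.69% of all tested genes did) and 0 fell (8.24% did). Slc1a2 was at 337 and 704, against 1.16, under the floor, an increase of at least 5.18 (adjusted p = 0.00191). The others were the arginine transporter Slc7a2 (3.27 ± 0.55, adjusted p = 0.0163) and the peptide and histidine transporter Slc15a3 (1.36 ± 0.17, adjusted p = 0.00877). Of 20 other enzymes of amino acid synthesis and breakdown, 2 rose in CD14-deficient cells, beside 2.17% of all tested genes. They were the tryptophan-degrading Ido1 (4.03 ± 0.49, limma adjusted p = 0.0191) and the arginase Arg2 (2.69 ± 0.39, adjusted p = 0.0262). In wild-type cells 4 of these enzymes rose and 0 fell, beside 7.69% and 8.24% of all tested genes. The increases were led by Arg2 (3.91 ± 0.39, limma adjusted p = 0.00458), Arg1 (3.20 ± 0.70, adjusted p = 0.0342) and Ido1 (2.80 ± 0.49, adjusted p = 0.0193). Of 24 cell division genes, 15 fell under LPS in CD14-deficient cells (2.01% of all tested genes did) and 21 did in wild-type ones (8.24%). Of 17 interferon response genes, 3 rose in CD14-deficient cells (2.17% of all tested genes did) and 10 in wild-type ones (7.69%).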

How the data were processed

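RNA of 10 dendritic cell samples was measured on 1 array each. The values analysed were the linear intensity that the authors deposited for each probe set, made with MAS5 per the submitters' processing notes. Which MAS5 version and target were used is not given in the sources used here. Because 2% trimmed means of the columns lay between 444 and 553, each array was scaled to 509, floored at 13.4 and taken as log2. The brightest probe set by mean stood for a gene. All 10 arrays entered 1 limma model (limma 3.58.1, R 4.3.3) with 6 levels of genotype and treatment and a term for time, coded so that LPS changes are means of 48 and 60 h. Variances were moderated along intensity (residual df 3, prior df 2.95). Two-sided p-values were adjusted by Benjamini-Hochberg over 7474 genes in each of 9 comparisons, with a threshold of 0.05. The method was tested on simulated data. All 32 members are named, with Cd14, Atf4, Ddit3, Trib3 and up to 3 passing genes from each neighbouring list. The members and lists were chosen with earlier results of these data known. Probe sets with several symbols were left out, 2 for Phgdh among them. The promoter sequence of Aars1 is not reported here. No label says that arrays came from separate mice. The alternatives changed the scaling, floor, filter, probe set rule, variance trend, time term or fold limit, or left out 1 stimulated array.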

Additional observations from a re-analysis of the deposited data

How the results depend on the processing

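Over 2766 values of single members under the alternatives, in the 6 comparisons that are not differences of differences or of times, 69 came to pass and 52 no longer did. The sign changed for 85 values, each passing in neither fit, and for 0 that passed in either. For CD14-deficient against wild-type LPS cells, 0 members passed, 1 with no term for time, and 0 to 10 with 1 array left out. For thapsigargin in CD14-deficient cells, 1 passed, 0 with no filter or no intensity trend, 3 with every probe set tested, 2 with the median of probe sets, and 0 to 9 with 1 array left out. For thapsigargin in wild-type cells, 0 passed, and 0 to 6 with 1 array left out. For LPS in CD14-deficient cells, 0 passed, 1 with unscaled values or no term for time (Slc7a11 in both), and 0 to 7 with 1 array left out. For LPS in wild-type cells, 6 passed, 1 with no filter (Shmt1), 3 with the strict filter, and 0 to 11 with 1 array left out. The strict filter asked for a signal above the median on all arrays, so Psat1 and Gpt2 were not tested under it. Aldh18a1 was tested and no longer passed (limma, adjusted p = 0.0543). The differences between genotypes in the LPS response and in the thapsigargin effect passed for 0 members, and for 0 to 3 and 0 to 5 with 1 array left out. At 1.5-fold instead of 2-fold at both times, counts were 4 instead of 0 for CD14-deficient against wild-type LPS cells (2 higher, beside 8.23% of all tested genes, and 2 lower, beside 5.46%) and 1 instead of 0 under LPS plus thapsigargin (higher, 1.7%). They were 5 instead of 1 for thapsigargin in CD14-deficient cells (all higher, 7.96%) and 4 instead of 0 in wild-type cells (3 higher, 4.27%, and 1 lower, 3.91%). Fits without an array moved the share of all genes called too, as given with the results. The cause of these changes was not tested. Slc7a11 under LPS in wild-type cells passed under 15 of 18 alternatives, with an adjusted p up to 0.0698. The other calls passed under 7 to 11 of 16 to 18. The filter changed the counts over all genes too. It also set how many genes were tested, 7474 in the main fit, 12393 with no filter and fewer with the strict one. These counts are therefore not shares of the same set of genes. CD14-deficient and wild-type LPS cells differed for 387 genes, against 105 with no filter and 217 with the strict one. LPS changed 1191 in wild-type cells, against 659 with the strict filter. Thapsigargin in CD14-deficient cells changed 495, against 153 with no filter and 288 with the strict one, and LPS there 312, against 81 with the strict one. The shift between 48 and 60 h was not run without the term for time. No paired analysis was possible because the labels carry no replicate numbers. With 1 array a condition, the precision is limited by the number of arrays.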
